A study of Mus musculus with 34 samples.

Results

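The comparison followed spinal cord that lacks trkB.T1 from day 3 to day 7 after a contusion. The day 7 group held 4 arrays and the day 3 group 5 arrays, all with the genotype label trkB.T1 KO, so 9 of the 34 arrays of the series were compared directly. Arrays were assigned by their titles. Every animal of both groups was a C57BL/6J mouse backcrossed for more than 20 generations, was 8 to 12 weeks old, lacked trkB.T1 and had received a moderate contusion of the thoracic cord. By the labels, the time after injury was all that set the groups apart. Per the labels, RNA came from thoracic spinal cord and the arrays were biological replicates. The labels do not say whether animals were pooled or how the trkB.T1 form was removed. Wild type (WT) cords of both times, 4 arrays per time, served for the same comparison in animals with trkB.T1. The sham and day 1 groups, among them 4 knockout sham arrays, served only as reference levels and in the shared fit. The design asks how the injured cord of the knockout moves on between these times and whether it does so as the WT cord does.

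Brain-derived neurotrophic factor (BDNF) signals through the receptor kinase TrkB. The shortened form trkB.T1 lacks the kinase domain and is the main form in astrocytes. After a contusion, blood-borne macrophages and resident microglia gather in the lesion, glia and immune cells divide, and blood vessels are lost and grow again. Phagocytes then clear myelin and cell debris through their lysosomes and export the lipid, while astrocytes and fibroblasts build a scar.

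All values are log2 levels of probe sets on Affymetrix mouse arrays, and a difference is always day 7 minus day 3, so that a log2 difference of 1 is a doubling. Where single arrays are listed they stand in the order of the replicate numbers, 1 to 5 for day 3 and 1 to 4 for day 7. A difference was called when its adjusted p, from limma with Benjamini-Hochberg adjustment over all 24573 tested probe sets, was under 0.05. Differences are given ± the standard error of that fit. The p-values measure only the spread between these arrays, which may in part be technical. Values near 2.17 are the floor of the table, and differences from a group with a mean below 4 are lower bounds in size. Single probe sets can have a higher floor of their own, such as 2.826 on 1435196_at.

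Ntrk2, the gene of TrkB, was read by 8 probe sets, and those that detect the loss of trkB.T1 were low in all 9 knockout arrays. On 1435196_at every one of these arrays read 2.826, whereas the WT means were 9.084 at day 3 and 9.738 at day 7. On 1420838_at the day 3 arrays read 3.12, 4.02, 3.31, 4.94 and 4.09 and the day 7 arrays 3.96, 4.24, 3.98 and 4.53, while the WT means were 10.655 and 10.641. No knockout array of either day came near the WT levels. The knockout sham means were higher than these arrays, 4.267 on 1435196_at and 5.574 on 1420838_at. The library labelled sham KO replicate 2 showed Ntrk2 signal against its label, and it remains in the knockout sham means given below. The probe sets that still read Ntrk2 in the knockout rose: 1458622_at by 0.68 ± 0.20 (adjusted p = 0.0113), 1437560_at by 0.61 (adjusted p = 0.0262) and 1435305_at by 0.56 (adjusted p = 0.0192). The 1435305_at arrays read 9.77, 9.96, 8.77, 9.15 and 9.99 at day 3 and 10.03, 10.08, 10.16 and 10.07 at day 7. The day 7 arrays all lay above day 3, and day 3 replicates 3 and 4 were the lowest. Without those 2 arrays the difference on 1458622_at was 0.24 (adjusted p = 0.35). The dim 1446712_at did not change (−0.03, adjusted p = 0.833), and 1420837_at and 1444121_at lay at the floor.

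The day 3 arrays differed among themselves far more than the day 7 arrays, which bears on everything that follows. The median SD of a probe set was 0.221 at day 3 and 0.093 at day 7 (WT 0.214 and 0.14). The day 3 value was the largest of the 8 groups, all of which enter the shared estimate of spread. On the first principal component of the 9 arrays, which held 60.8% of the variance, the day 7 arrays lay between 37.8 and 43.1 and the day 3 arrays at −30.4, 7.8, −96.3, −51.3 and 10.7. Replicates 3 and 4 of day 3 were thus the farthest from day 7. Day 3 replicates 1 and 3 also carried skeletal muscle RNA, as described below. The difference between the 3′ and 5′ probe sets of a control gene is a sign of RNA integrity. For actin it was 1.22 to 1.81 at day 3 and 1.882 to 1.985 at day 7, without overlap. For Gapdh it was 0.175 to 0.517 at day 3 and 0.429 to 0.456 at day 7, with overlap through day 3 replicate 5. The part of RNA integrity in the results was not tested. Because the tissue was taken whole, fewer cells of a type and less RNA per cell cannot be told apart.

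Between day 3 and day 7 many transcripts of cell division, of monocyte attraction and of wound macrophages fell in the knockout cord, and several of lipid-laden phagocytes, microglia and homeostatic astrocytes rose. Of 24573 probe sets, 7463 were called (30.4%), 3969 higher (16.2%) and 3494 lower (14.2%) at day 7. Of these, 2863 (11.7%) also reached 1.5-fold. Counted once per gene, 2191 of 11998 genes (18.3%) rose and 1879 (15.7%) fell, with a median over all genes of 0.03. At least 1.5-fold, 811 genes (6.76%) rose and 686 (5.72%) fell. The single arrays did not overlap, with every day 7 array above every day 3 array, for 1634 genes (13.6%), and with every one below for 1683 (14%). Without day 3 replicate 3 the probe sets called numbered 4888 and those higher 2349. Without replicate 4 those higher numbered 2518. Without both replicates 2626 probe sets were called, and 5.82% of genes rose and 6.68% fell. The list counts below are to be read against these shares, with all arrays or without both replicates. Fitting only the 9 arrays compared, which leaves fewer arrays to estimate the spread, gave 3453 called probe sets. In that fit 1791 of the 4070 called genes kept their call and direction.

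**Figure D1:**
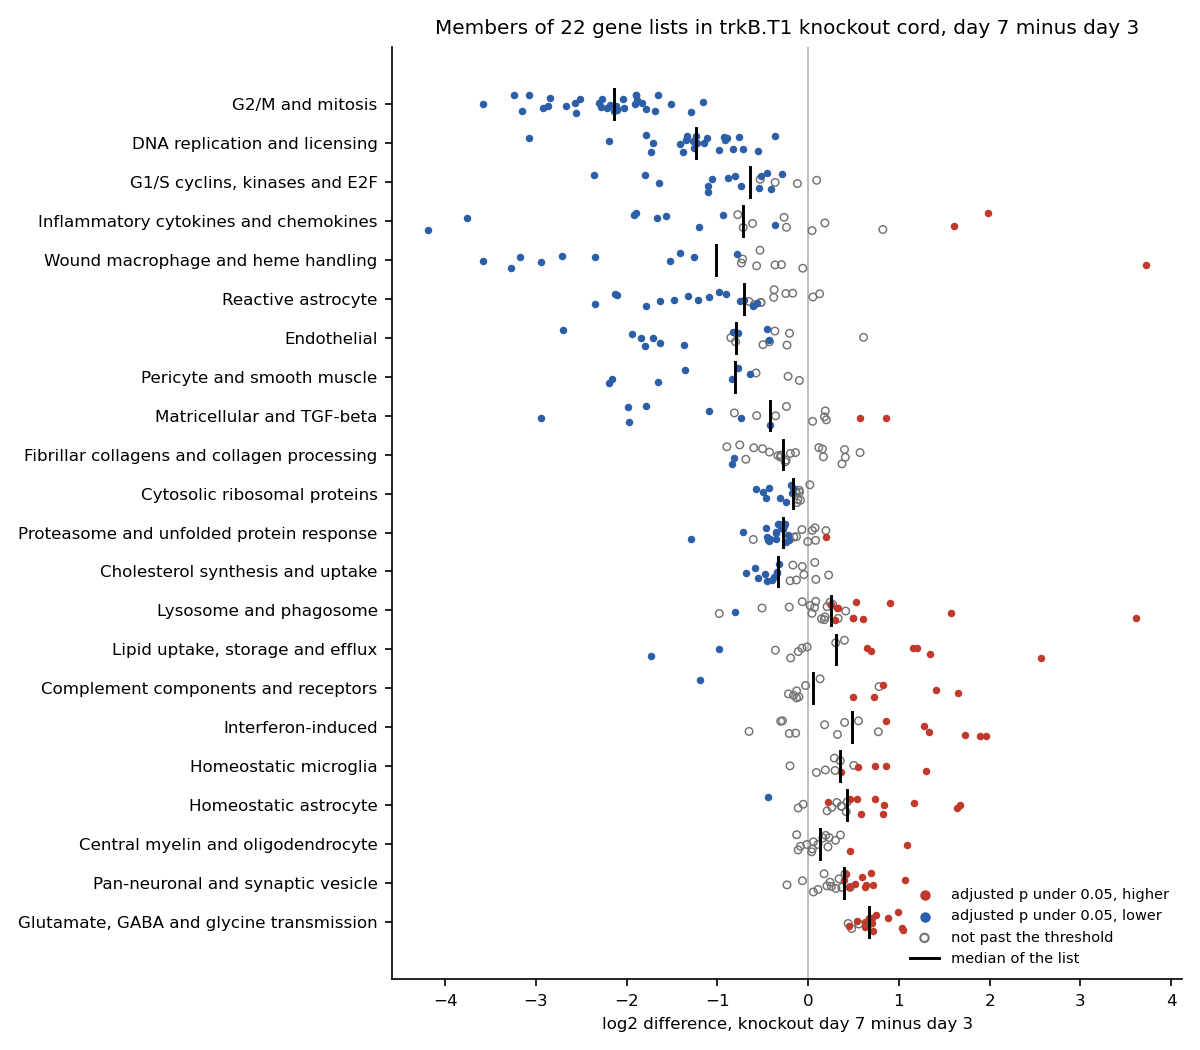
Each point is 1 tested member of 1 of 22 gene lists, placed at its log2 difference, day 7 minus day 3, in trkB.T1 knockout cord. Red and blue points passed the threshold of 0.05 on the adjusted p as higher and lower, open points did not, and black bars are list medians. All 33 points of the G2/M list are blue, and the median falls to −2.14 there.

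The 15 genes with the largest called increases were led by a long noncoding RNA. 9630013A20Rik, a transcript known from newly formed oligodendrocytes, read 4.73, 5.85, 4.26, 4.97 and 5.82 at day 3 and 9.74, 9.77, 9.71 and 9.70 at day 7. Every day 7 array lay above every day 3 array, and the day 7 arrays lay close together. It rose by 4.60 ± 0.27 (adjusted p = 5.19e-13), or 24.3-fold, to above its knockout sham mean of 7.36. Mmp12, the elastase of macrophages, read 6.71, 3.48, 6.79, 4.56 and 3.56 at day 3 and 8.68, 8.48, 8.93 and 8.89 at day 7. Its increase was 3.73 ± 0.58 (adjusted p = 2.95e-05), and day 3 replicates 1 and 3 stood highest within the earlier group. Atp6v0d2, a subunit of the proton pump that acidifies lysosomes in osteoclasts and macrophages, went from 2.40, 3.94, 5.33, 5.17 and 3.58 to 7.93, 7.80, 7.49 and 7.58. That was a rise of 3.62 ± 0.34 (adjusted p = 6.41e-09) with no overlap, from a sham mean of 2.24 near the floor.

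Several others of the 15 belong to endosomes and lipoproteins. Mcoln3, a cation channel of endosomes and lysosomes, read 2.64, 2.89, 3.34, 3.12 and 2.37 at day 3 and 6.36, 5.57, 5.32 and 6.12 at day 7, a rise of 2.97 ± 0.16 (adjusted p = 1.34e-13). Cst7, which encodes cystatin F, an inhibitor of lysosomal cysteine proteases, read 6.18, 6.91, 6.76, 7.53 and 6.76 and then 9.15, 9.22, 9.42 and 9.47 and rose by 2.49 ± 0.32 (adjusted p = 1.78e-06). Apoc1, an apolipoprotein whose gene lies beside Apoe, read 6.54, 7.05, 6.56, 6.60 and 6.40 and then 8.84, 9.10, 9.43 and 9.41 and rose by 2.57 ± 0.58 (adjusted p = 0.00179). In each of these 3 genes the arrays of the 2 days did not overlap. Apoc4, from the same gene cluster, lay at 2.17 in all day 3 arrays and at 4.53, 4.63, 4.30 and 3.99 at day 7, so that its difference of 2.19 (adjusted p = 0.00169) is a lower bound. The rest were Rassf10 (3.28), the potassium channel accessory subunit Kcne1l (2.93), the secreted protein Mia (2.53), Igsf1 (2.52), the costimulatory receptor Cd28 (2.39), the anion exchanger Slc26a7 (2.29), the growth factor Igf2 (2.24) and the retinol carrier Rbp4 (2.23). The calls of Rbp4 (adjusted p = 0.0321) and Slc26a7 (adjusted p = 0.0265) were lost without any 1 of several arrays, among them day 3 replicate 4 (adjusted p = 0.0683 and 0.0793).

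The 15 genes with the largest called decreases were mostly of macrophages and of mitosis, and 2 were of muscle. Myh4 and Hspb7, a myosin of fast muscle and a small heat shock protein of muscle and heart, changed by −4.94 (adjusted p = 0.0341) and −3.21 (adjusted p = 0.0368). Both followed the muscle RNA of day 3 replicates 1 and 3, and without these arrays the values were −1.56 (adjusted p = 0.518) and −0.90 (adjusted p = 0.505). The others were Ccl7, Ccl2, Hmox1, Hmmr, Arg1, Kif20a, Chil3, Aurka, Ccr2, Ptges3l, Plk1, Tk1 and Clec4n, with differences from −4.19 to −3.07. Ptges3l read 5.34, 6.12, 7.67, 6.33 and 5.42 at day 3 and 2.71, 2.68, 3.37 and 3.50 at day 7. Its day 7 arrays all lay below day 3, and day 3 replicate 3 stood highest.

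The clearest change was in mitosis. Of 35 genes listed for G2/M and mitosis, 33 were tested, and all 33 fell, each by more than 1.5-fold and each with every day 7 array below every day 3 array. The median was −2.14 and the range −3.58 to −1.16, against 15.7% of all genes called lower and 5.72% lower by 1.5-fold. The mean level of the list was 7.50, 7.21, 7.79, 8.11 and 7.37 in the day 3 arrays and 5.50, 5.36, 5.32 and 5.19 in the day 7 arrays, while the knockout sham mean was 3.39 and the day 1 mean 3.27. All day 7 arrays thus lay below day 3 and above the knockout sham mean. All 33 were still called without day 3 replicates 3 and 4 (median −1.91), and 32 without replicates 1, 3 and 4.

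Hmmr, a microtubule-binding protein of the mitotic spindle, read 7.34, 7.13, 7.48, 8.13 and 6.96 at day 3 and 3.68, 3.78, 3.55 and 4.28 at day 7, a difference of −3.58 ± 0.34 (adjusted p = 1.21e-08). Aurka, the kinase of the spindle poles, read 5.85, 6.05, 6.46, 7.22 and 5.75 and then 3.48, 3.08, 2.90 and 2.97, a difference of −3.16 ± 0.22 (adjusted p = 3.35e-11). Plk1, the kinase that drives mitotic entry and exit, read 5.60, 5.58, 5.88, 6.23 and 5.01 and then 2.51, 2.71, 2.57 and 2.51, a difference of −3.08 ± 0.23 (adjusted p = 9.59e-11). All 3 had a day 7 mean below 4 (Plk1 2.58, Aurka 3.11 and Hmmr 3.82), so that these differences are lower bounds in size. In each of these genes day 3 replicate 4 was the highest array. Kif20a, a kinesin of cytokinesis, fell by 3.24 (adjusted p = 1.26e-11). Cenpf of the kinetochore fell by 2.92 and the checkpoint kinase Ttk fell by 2.87. Mki67, whose protein Ki-67 marks cycling cells, read 10.43, 10.04, 10.92, 10.91 and 10.002 at day 3 and 8.68, 8.41, 8.37 and 8.25 at day 7. It fell by 2.03 (adjusted p = 0.00134) without overlap, yet its day 7 level stayed well above the knockout sham mean of 4.10.

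**Figure D2:**
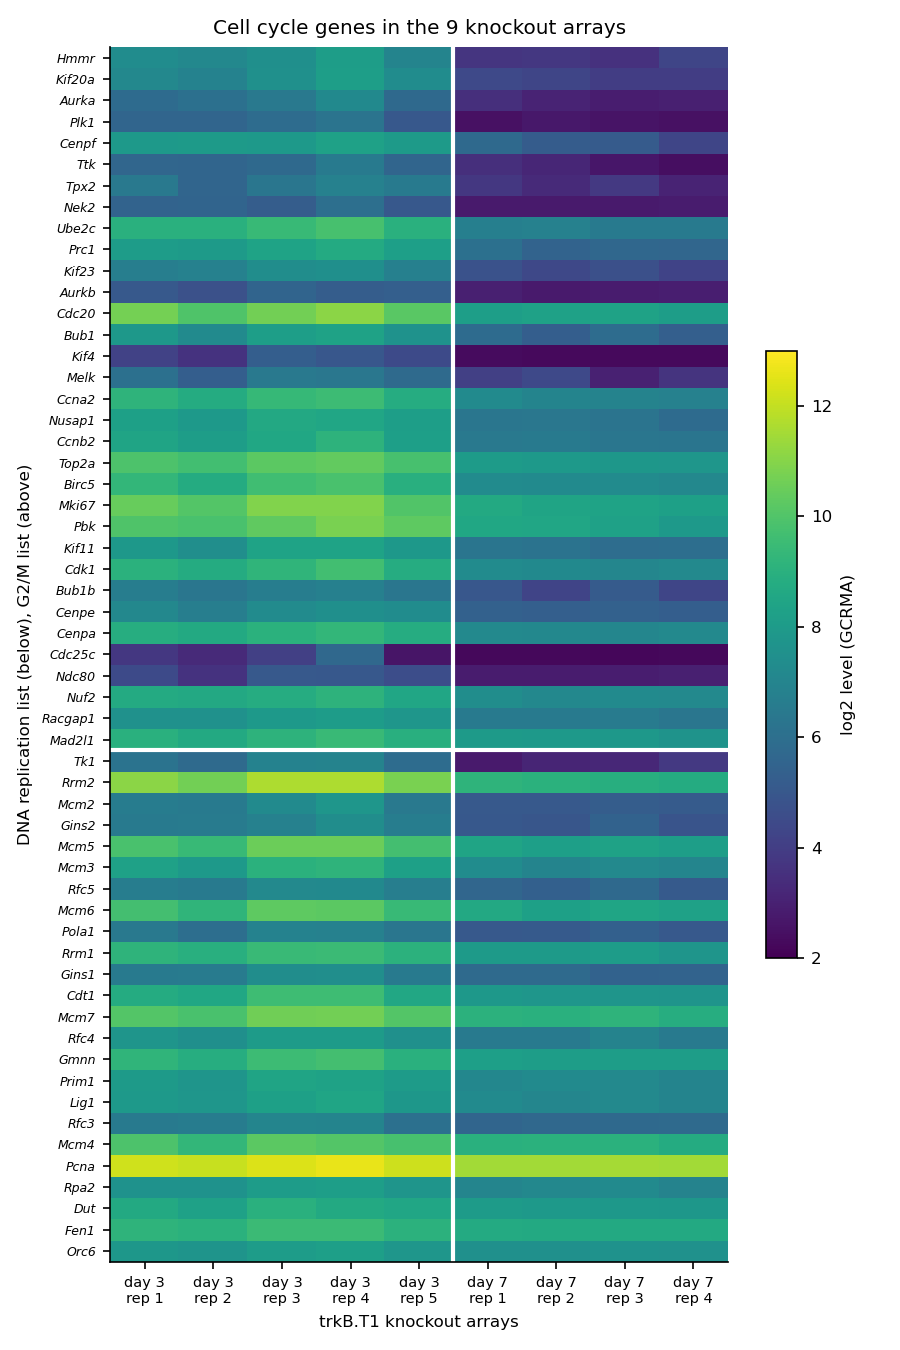
Colour gives the log2 level of 33 G2/M genes (top block) and 24 DNA replication genes (bottom block) in the 5 day 3 and 4 day 7 knockout arrays, on a scale from 2 to 13. Every row is darker on the right of the white line than on the left, and the brightest day 3 columns are mostly replicates 3 and 4.

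The promoters of these mitotic genes are shown because the list moved as a block and because many of its genes carry the same short motifs. The cell cycle homology region (CHR, letters TTTGAA) is known as the site through which the DREAM complex and MYB-MuvB act on G2/M genes, and the CCAAT box is the site of NF-Y. RefSeq promoters (GRCm38.p6, 250 bases before to 50 after the start) were found for 27 of the 33 genes. On either strand, TTTGAA was present in 19 of these 27 genes (70.4%), against 13.9% of all tested genes with a promoter. The letters CCAAT were present in 21 of 27 (77.8%), against 42.8%. Over single promoters the shares were 71.4% of 28 against 17.9% of all 32851 for TTTGAA, and 78.6% against 37.4% for CCAAT. A match is a description of the letters only. Capitals mark TTTGAA and CCAAT, or ATTGG and TTCAAA where the motif lies on the other strand. In Plk1 (chr7:122159185-122159484, plus strand) TTTGAA starts 30 bases after the start and CCAAT 14 before. In Aurka (chr2:172370521-172370820, minus strand) TTTGAA starts 32 bases after the start and CCAAT 51 and 19 before. In Hmmr (chr11:40733388-40733687, minus strand) TTTGAA starts 8 bases after the start, and ATTGG stands 172, 129, 96, 47 and 20 bases before it.
Plk1: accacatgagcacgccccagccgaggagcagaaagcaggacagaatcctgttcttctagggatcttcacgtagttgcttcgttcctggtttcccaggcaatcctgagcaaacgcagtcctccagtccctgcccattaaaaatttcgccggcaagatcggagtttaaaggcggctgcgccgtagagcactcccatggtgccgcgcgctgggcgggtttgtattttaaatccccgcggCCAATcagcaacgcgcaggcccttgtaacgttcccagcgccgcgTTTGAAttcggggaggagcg
Aurka: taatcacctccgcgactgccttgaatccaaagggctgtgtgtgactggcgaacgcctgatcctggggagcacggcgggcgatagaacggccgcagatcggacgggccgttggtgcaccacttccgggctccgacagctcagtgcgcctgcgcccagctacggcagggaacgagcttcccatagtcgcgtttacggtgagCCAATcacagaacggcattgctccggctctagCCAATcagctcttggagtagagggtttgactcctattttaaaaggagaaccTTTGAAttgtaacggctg
Hmmr: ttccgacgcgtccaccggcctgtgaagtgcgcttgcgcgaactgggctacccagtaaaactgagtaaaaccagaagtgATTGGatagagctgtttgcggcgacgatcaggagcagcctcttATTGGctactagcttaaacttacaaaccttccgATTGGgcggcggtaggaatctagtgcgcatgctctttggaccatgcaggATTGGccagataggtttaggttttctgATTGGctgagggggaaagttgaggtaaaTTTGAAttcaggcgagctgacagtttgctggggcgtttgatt

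DNA replication genes fell with mitosis, to a smaller extent. Of 29 listed genes 24 were tested, and all 24 fell, 22 by at least 1.5-fold, with a median of −1.23, a range of −3.08 to −0.36 and no overlap between days in any. The list mean was 8.36, 8.12, 8.84, 8.90 and 8.25 at day 3 and 7.27, 7.21, 7.31 and 7.15 at day 7, and the knockout sham mean was 6.28. The day 7 arrays lay within 0.16 of each other, while day 3 replicates 3 and 4 were the highest. Tk1, the thymidine salvage kinase of S phase, read 6.20, 5.81, 6.86, 6.90 and 5.88 and then 2.80, 3.13, 3.23 and 3.83 and fell by 3.08 (adjusted p = 1.11e-08). Rrm2, a subunit of ribonucleotide reductase, read 11.08, 10.66, 11.64, 11.63 and 10.78 and then 9.13, 9.02, 8.92 and 8.78 and fell by 2.19 (adjusted p = 8.07e-07). Mcm5, a subunit of the replicative helicase, read 9.84, 9.40, 10.52, 10.52 and 9.73 and then 8.44, 8.21, 8.33 and 8.17 and fell by 1.71 (adjusted p = 1.06e-06). Its partners Mcm2 (−1.78) and Mcm3 (−1.42) fell too, and Gins2 of the same replication complex fell by 1.73. The list counted 22 lower without day 3 replicates 3 and 4 (median −0.94).

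E2F factors are the known regulators of such replication genes, and the Mcm5 promoter (chr8:75109259-75109558, plus strand, RefSeq, GRCm38.p6) is given as an example. Capitals mark 2 overlapping matches to TTTNNCGC, starting 153 bases (read as TTTCGCGC) and 149 bases (read as GCGCCAAA on the shown strand) before the start. On either strand TTTNNCGC was present in 8 of 20 replication genes with a promoter (40.0%) and in 8 of 14 G1/S genes (57.1%), against 9.63% of tested genes. Over single promoters the shares were 33.3% and 44.4%, against 5.17% of all promoters of this length.
Mcm5: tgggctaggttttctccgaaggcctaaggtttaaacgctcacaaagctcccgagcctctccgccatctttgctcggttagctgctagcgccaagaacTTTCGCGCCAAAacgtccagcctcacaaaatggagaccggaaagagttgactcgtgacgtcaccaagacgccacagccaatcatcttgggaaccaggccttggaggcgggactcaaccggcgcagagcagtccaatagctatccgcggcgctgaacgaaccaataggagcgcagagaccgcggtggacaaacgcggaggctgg

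Upstream of replication, 14 of 18 G1/S cyclins, kinases and E2F genes fell and none rose (median −0.64). The leading ones were the licensing factor Cdc6 (−2.37 ± 0.28, adjusted p = 4.19e-07) and the repressor E2Fs E2f7 (−1.80) and E2f8 (−1.64), which act late in the cycle. Cdk2, the S phase kinase, fell by 1.10 (adjusted p = 4.23e-07), as did the pocket protein Rbl1, and cyclin E2 (Ccne2) fell by 1.06. The G1/S count without day 3 replicates 3 and 4 was 8 (median −0.35), and without replicates 1, 3 and 4 it was 4. Inhibitors of cyclin-dependent kinases and p53 targets did not move the other way: of 14 tested, 6 fell and none rose (median −0.29). Cdkn2c fell by 1.12 (adjusted p = 8.99e-05), Cdkn1a, which encodes p21, fell by 0.97 (adjusted p = 0.0113) and the stress gene Gadd45g fell by 0.81. That count was 3 without day 3 replicates 3 and 4.

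Among inflammatory cytokines and chemokines, the monocyte attractants fell the furthest. Of 25 listed genes 19 were tested, of which 9 fell and 2 rose (median −0.72), and in 10 every day 7 array lay below every day 3 array. Ccl2, the main attractant of blood monocytes, read 9.72, 8.82, 10.38, 10.31 and 9.21 at day 3 and 6.21, 5.61, 5.94 and 5.98 at day 7. It fell by 3.76 (adjusted p = 4.11e-10) and at day 7 was still above its knockout sham mean of 3.46. Ccl7, its close relative, read 8.80, 7.22, 9.34, 9.26 and 7.71 and then 3.52, 5.10, 3.89 and 4.60 and fell by 4.19 (adjusted p = 6.44e-09). Day 7 replicate 1 lay at the knockout sham mean of Ccl7, 3.52, so that this difference may be a lower bound. In both genes day 3 replicates 3 and 4 were the highest and the groups were far apart. Ccr2, the receptor for both, read 7.50, 4.78, 7.77, 6.88 and 5.98 and then 2.87, 3.69, 3.99 and 3.28, a difference of −3.13 ± 0.52 (adjusted p = 7.02e-05), and its day 3 arrays were widely spread. The neutrophil attractants Cxcl1 (−1.90, adjusted p = 0.00207) and Cxcl2 (−1.92, adjusted p = 0.0402) fell, and Ccl9 fell by 1.66.

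Ccl5 and Cxcl10, attractants of T cells, were the 2 that rose. Ccl5 read 2.30, 2.21, 4.58, 2.49 and 2.81 at day 3 and 4.35, 4.29, 5.38 and 5.42 at day 7, a difference of 1.98 (adjusted p = 0.00697), with day 3 replicate 3 inside the day 7 range. Cxcl10, outside the rule for named genes, rose by 1.61 (adjusted p = 0.00601), and its day 3 replicate 3 overlapped day 7 as well. With day 3 replicates 3 and 4 left out, the cytokine list counted 4 lower and 3 higher. T and NK cell genes were almost undetected: of 18 listed, 1 was tested, Thy1, which neurons also express (0.41, adjusted p = 0.0221). Of the B and plasma cell list Ighm alone was tested, and it rose by 1.06 (adjusted p = 0.0141). Both calls were lost without day 3 replicate 4, and that of Thy1 also without day 3 replicate 3 or day 7 replicate 4.

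Most called genes of the wound macrophage and heme list were lower at day 7. Of 18 tested members 10 fell, Mmp12 alone rose and 7 did not pass (median −1.02). The list mean was 9.57, 8.70, 10.13, 9.75 and 8.69 at day 3 and 8.11, 8.12, 8.25 and 7.97 at day 7, so that all day 7 arrays lay below day 3 and replicates 2 and 5 of day 3 lay nearest to them. Hmox1, the enzyme that breaks down heme, read 11.28, 11.22, 12.07, 12.61 and 10.81 and then 7.88, 7.73, 8.62 and 7.83 and fell by 3.59 (adjusted p = 4.71e-09) toward a sham mean of 3.20. Arg1, the arginase of wound macrophages, read 11.94, 11.08, 12.49, 13.21 and 11.45 and then 8.63, 8.88, 9.28 and 8.25 and fell by 3.28 (adjusted p = 1.37e-06). Chil3, a chitinase-like protein of macrophages, read 11.31, 10.28, 12.77, 11.25 and 9.62 and then 7.79, 8.64, 8.28 and 6.78 and fell by 3.17 (adjusted p = 0.00104). None of the 3 overlapped between days.

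Thbs1, the matrix protein thrombospondin 1, fell by 2.95 (adjusted p = 3.03e-05), and the C-type lectin receptor Clec4d fell by 2.71. Clec4n, its relative that binds fungal mannans, read 7.67, 6.71, 8.00, 8.83 and 7.41 at day 3 and 4.34, 4.27, 4.83 and 5.19 at day 7 and fell by 3.07 (adjusted p = 3.22e-05). The wound macrophage list counted 8 lower and 1 higher without day 3 replicates 3 and 4 (median −0.68). The neutrophil list showed 1 called member of 11 tested, Lcn2, which fell by 2.10 (adjusted p = 0.00453), a gene that reactive astrocytes also express. Without day 3 replicate 5 the count was 4. The granule genes Mpo (−1.37, adjusted p = 0.182), Mmp9 (−1.13, adjusted p = 0.051), Mmp8 (−1.06, adjusted p = 0.114) and Camp (−0.97, adjusted p = 0.498) did not pass. The neutrophil list mean was 8.22, 7.31, 10.08, 7.33 and 6.78 at day 3 and 7.02, 7.33, 7.20 and 6.38 at day 7, and replicate 3 of day 3 stood apart.

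**Figure D3:**
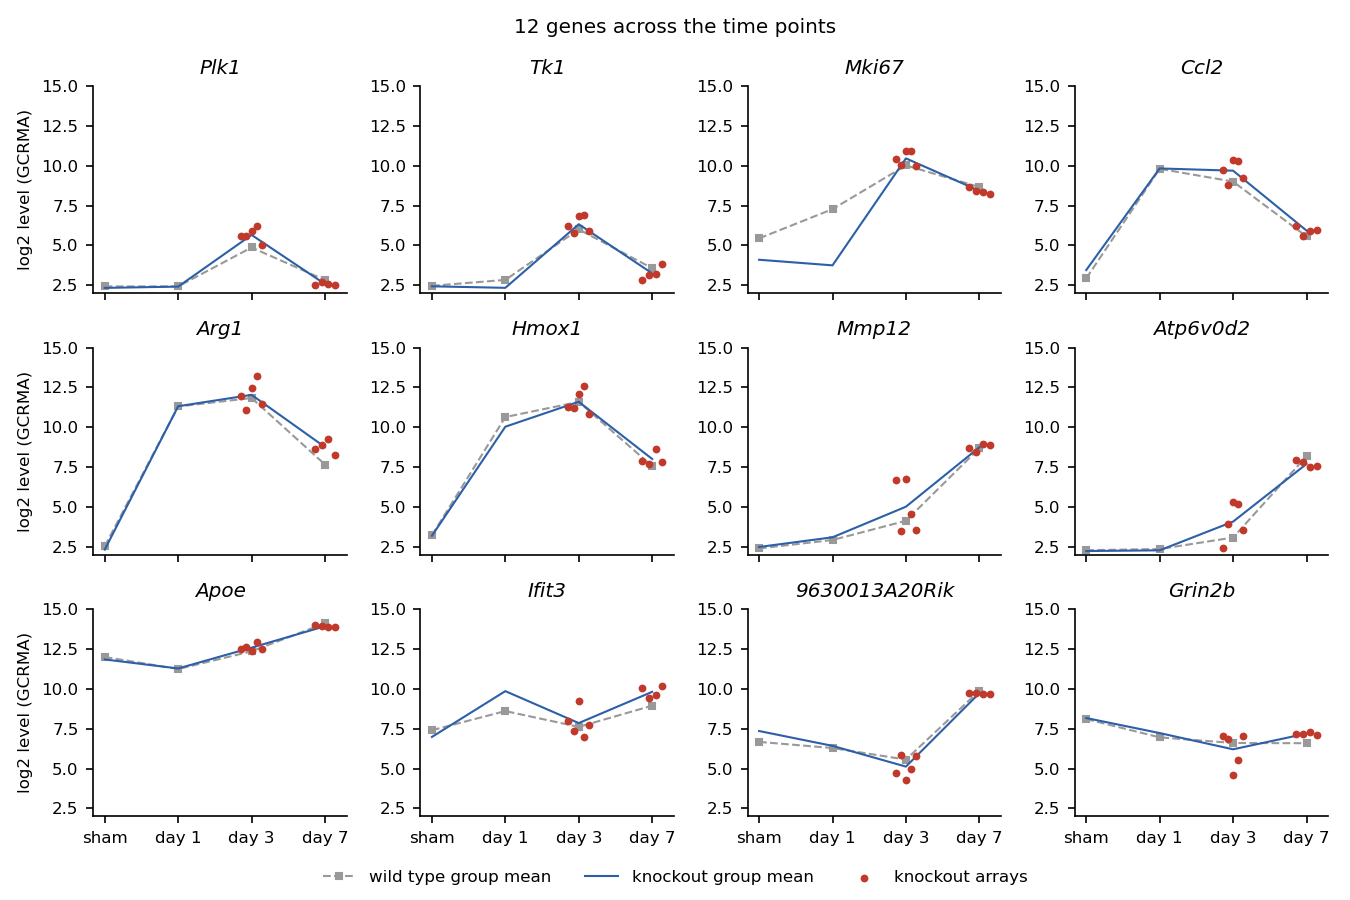
Group means of 12 genes (log2 level) in sham cords and at day 1, day 3 and day 7, for knockout (blue) and wild type (grey, dashed), with each knockout array of day 3 and day 7 in red. Plk1 and Tk1 rise to day 3 and fall back, Ccl2, Arg1 and Hmox1 fall from a high level, and Mmp12, Atp6v0d2 and 9630013A20Rik reach their highest knockout mean at day 7.

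Lysosome and phagosome genes rose in part. Of 32 listed genes 28 were tested: 11 rose, 1 fell and 16 did not pass (median 0.25), against 18.3% and 15.7% of all genes. Gpnmb, a glycoprotein of lipid-laden phagocytes, read 11.21, 11.59, 11.97, 12.58 and 11.75 at day 3 and 13.59, 13.52, 13.09 and 13.39 at day 7 and rose by 1.58 ± 0.48 (adjusted p = 0.0142), with all day 7 arrays above day 3. The opsonin Mfge8, which bridges dying cells to phagocytes, rose by 0.90 (adjusted p = 2.87e-05), the galactosidase Glb1 by 0.60, the protease cathepsin D (Ctsd) by 0.49 (adjusted p = 0.00519) and the cholesterol carrier Npc2 by 0.32. Cathepsin C (Ctsc) fell by 0.80 (adjusted p = 0.00261). Cd68, a common macrophage marker, differed by 0.02 (adjusted p = 0.966), and the acid phosphatase Acp5 by −0.98 (adjusted p = 0.289).

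The mean of the lysosome list was 10.88, 10.90, 11.37, 11.52 and 10.84 at day 3 and 11.51, 11.43, 11.34 and 11.41 at day 7. Replicates 3 and 4 of day 3 were at the day 7 level, and the other 3 lay below it. Without these 2 arrays 15 members rose and none fell (median 0.42), whereas without day 3 replicates 1 and 3 the count was 7 higher. The E-box CACGTG, known as the core of the sites that TFEB binds at lysosomal genes, was present in 7 of the 24 list genes with a RefSeq promoter (29.2%), against 11.7% of tested genes. That share covers the whole list, also members that did not rise. Among all genes called higher the share was 10.7%, and binding was not tested.

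Genes for lipid uptake, storage and efflux were called in both directions, and the known efflux and apolipoprotein genes were higher. Of 15 tested members 6 rose and 2 fell (median 0.30). Apoe, the main lipid carrier of the nervous system, read 12.51, 12.61, 12.36, 12.96 and 12.49 at day 3 and 13.98, 13.94, 13.90 and 13.89 at day 7 and rose by 1.34 ± 0.15 (adjusted p = 1.61e-07). Trem2, the lipid-sensing receptor of microglia and macrophages, read 8.96, 9.04, 8.99, 9.66 and 8.90 and then 10.39, 10.30, 10.21 and 10.33 and rose by 1.20 ± 0.22 (adjusted p = 0.000215). Day 7 lay above day 3 in every array for both genes. Lipoprotein lipase (Lpl) rose by 1.15 (adjusted p = 0.00872) and the cholesterol exporter Abca1 by 0.69 (adjusted p = 0.000625). The scavenger receptors Olr1 and Msr1, which take up modified lipoproteins, changed by −1.73 (adjusted p = 0.000118) and −0.99 (adjusted p = 0.00883).

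The called cholesterol synthesis genes were lower by small amounts. Of 18 tested members 10 fell and none rose (median −0.33), 1 of them by 1.5-fold. Ebp, a sterol isomerase, fell by 0.69 (adjusted p = 6.75e-07), as did mevalonate kinase (Mvk, −0.58), Fdps (−0.55), Sc5d (−0.46) and squalene epoxidase (Sqle, −0.39). Without day 7 replicate 1 the count was 6.

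Receptors and complement followed no single direction. Of 14 tested complement genes 5 rose and 1 fell (median 0.05): the component C2 rose by 1.65 (adjusted p = 0.000168), the integrin Itgax by 1.41 (adjusted p = 3.03e-05), and C1qc and C1qa by 0.82 and 0.72, while the anaphylatoxin receptor C5ar1 fell by 1.19. Of 13 Fc receptor and ITAM signalling genes 3 rose, the beta-glucan receptor Clec7a (1.76, adjusted p = 0.000443), Trem2 and its adaptor Tyrobp (0.72), and none fell. The share higher, 23.1%, was near the 18.3% of all genes. The list median was −0.23, and without day 3 replicate 2 the count of lower members was 3. Of the dendritic cell and MHC class II list, 3 of 8 tested members fell, and Itgax was the 1 that rose. H2-Eb1 fell by 1.49 (adjusted p = 0.0148), the invariant chain Cd74 fell by 1.48 (adjusted p = 0.00305) and H2-Ab1 fell by 1.17 (adjusted p = 0.0117), whereas H2-Aa did not pass (−1.24, adjusted p = 0.0622). The count of lower members was 1 without day 3 replicate 3 and 0 without replicates 3 and 4. By limma's adjusted p 0 of 10 MHC class I genes were called (median 0.13), with 2 at an unadjusted p under 0.05, a level that 46.1% of all genes reached, but without day 3 replicate 3 there were 2 higher.

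Interferon-induced genes were called higher in 6 of 16 tested members and lower in none (median 0.48). Ifit3, an antiviral effector, read 8.00, 7.34, 9.23, 6.98 and 7.72 at day 3 and 10.03, 9.44, 9.58 and 10.20 at day 7 and rose by 1.96 ± 0.40 (adjusted p = 0.00059). All day 7 arrays lay above day 3, where replicate 3 was the highest. Ifit1 rose by 1.90 (adjusted p = 0.0186), Usp18, which curbs interferon signalling, by 1.73 (adjusted p = 0.0313), and Oasl2, Mx1 and Ifit2 by 1.34, 1.28 and 0.85. The list mean was 7.57, 6.53, 8.41, 6.96 and 6.53 at day 3 and 7.85, 7.47, 7.71 and 8.20 at day 7, so that replicate 3 of day 3 lay above the whole day 7 group. The count rested on single arrays: it was 2 without day 3 replicate 4 and 1 without day 7 replicate 4.

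Some genes of homeostatic microglia were higher at day 7. The rise did not start from a low level. On day 3 the knockout mean of this list was already 9.38, against 7.74 in sham cords and 7.30 on day 1. Its day 7 mean was 9.82. Of 12 tested members 5 rose and none fell (median 0.36). Siglech, a sialic acid receptor of microglia, read 6.26, 6.09, 5.20, 5.86 and 6.43 at day 3 and 7.15, 7.14, 7.23 and 7.53 at day 7 and rose by 1.30 (adjusted p = 0.00128). The groups did not overlap, and day 3 replicate 3 was the lowest. Gpr34 rose by 0.86, the fractalkine receptor Cx3cr1 by 0.74 (adjusted p = 0.00448), P2ry13 by 0.55 (adjusted p = 0.0483) and the CSF1 receptor Csf1r by 0.36 (adjusted p = 0.013). P2ry12, the ADP receptor of resting microglia, did not pass (0.50, adjusted p = 0.216). The count was 3 without day 3 replicate 3 and 2 without replicates 3 and 4.

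Genes listed for astrocytes moved in 2 directions. In whole tissue these changes cannot be assigned to astrocytes alone: Timp1 is also on the wound macrophage list and Lcn2 on the neutrophil list. Of 25 genes of reactive astrocytes 15 fell and none rose (median −0.70), 14 of the 15 by 1.5-fold and all 15 without overlap between days. Timp1, the metalloproteinase inhibitor, read 10.18, 10.19, 10.86, 10.93 and 10.28 at day 3 and 8.09, 8.09, 8.45 and 7.93 at day 7 and fell by 2.35 (adjusted p = 4.79e-08). The arrays of each day lay within 0.8 of each other, far from the other day. The transglutaminase Tgm1 fell by 2.13, the cytokine signalling inhibitor Socs3 fell by 1.78 (adjusted p = 9.96e-06), the prostaglandin synthase Ptgs2 fell by 1.63 (adjusted p = 0.0136) and the intermediate filament nestin (Nes) fell by 1.48. Gfap, the filament that defines reactive astrocytes, did not pass (0.05, adjusted p = 0.794), and vimentin (Vim) fell by 0.56 (adjusted p = 0.0224).

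Homeostatic astrocyte genes rose in 10 of 20 tested members and fell in 1 (median 0.43), and in 13 every day 7 array lay above day 3. Among all genes 18.3% rose, and 13.6% had every day 7 array above day 3. Ntsr2, a neurotensin receptor of astrocytes, read 9.69, 9.95, 8.31, 9.13 and 9.99 at day 3 and 11.01, 11.15, 11.07 and 11.10 at day 7 and rose by 1.67 (adjusted p = 9.83e-06). Day 3 replicate 3 was the lowest and the day 7 arrays were almost equal. Angiotensinogen (Agt) rose by 1.64 (adjusted p = 9.31e-08), the GABA transporter Slc6a11 by 1.17, Mlc1 by 0.83, the glutamate transporter Slc1a3 by 0.83 and the glypican Gpc5 by 0.74. Leaving out day 3 replicates 3 and 4 gave 7 higher and 1 lower for the homeostatic list (median 0.18) and 10 lower for the reactive list (median −0.51).

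Matrix genes showed little common change. Of 22 fibrillar collagen and collagen processing genes 2 fell, the crosslinking enzyme Loxl3 (−0.84, adjusted p = 0.00146) and the procollagen protease Bmp1 (−0.82, adjusted p = 0.00217), and none rose. Col1a1, the main fibrillar collagen, read 9.73, 7.73, 10.94, 8.67 and 7.28 at day 3 and 8.85, 8.87, 9.40 and 9.03 at day 7, and the day 7 arrays lay inside the day 3 range (0.17, adjusted p = 0.896). Of 12 basement membrane genes 2 rose and 1 fell, the last being Col4a1 (−1.17, adjusted p = 0.0415), and every one of these 3 calls was lost when any 1 of the day 7 arrays was left out. The fibroblast list had 3 higher and 3 lower of 18: Fmod, a collagen-binding proteoglycan, rose by 1.96 (adjusted p = 0.0142), while the fibulin Fbln2 fell by 2.10 and S100a4 fell by 1.78. Each direction held 16.7% of this list, near the 18.3% and 15.7% of all genes. Without day 7 replicate 4, 1 was higher, and without day 3 replicate 5, 5 were lower. The collagen list mean was 9.05, 7.90, 9.59, 8.83 and 7.93 at day 3 and 8.37, 8.27, 8.61 and 8.46 at day 7, and the spread at day 3 spanned the day 7 values.

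Matricellular and TGF-beta genes were called lower in 7 of 17 and higher in 2 (median −0.43). Besides Thbs1, the induced matrix protein Tgfbi and Ccn1 each fell by 1.98, tenascin C (Tnc) fell by 1.79 (adjusted p = 7.51e-06) and the activin subunit Inhba fell by 1.09, while the receptor Tgfbr1 rose by 0.86 (adjusted p = 4.86e-08). Of 12 genes of chondroitin sulfate proteoglycans and their partners, 3 of the perineuronal and glial matrix rose, the link protein Hapln1 (1.09), brevican (Bcan, 1.06) and tenascin R (Tnr, 0.90), and 3 fell, the largest being the hyaluronan receptor Cd44 (−0.75). Matrix proteases and their inhibitors split evenly, with 5 higher and 5 lower of 22 (22.7% each, against 18.3% and 15.7% of all genes). Beside Mmp12 and Timp1, the urokinase Plau, outside the rule for named genes, rose by 1.00, Adamts1 fell by 1.04, and Mmp13 did not pass (−1.80, adjusted p = 0.288).

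Many vessel genes were lower at day 7. Of 19 endothelial genes 11 fell and none rose (median −0.80), all 11 without overlap. Pecam1, the adhesion molecule of endothelial junctions, read 5.22, 4.88, 6.38, 6.62 and 3.72 at day 3 and 2.77, 2.58, 2.73 and 2.58 at day 7 and fell by 2.70 (adjusted p = 4.8e-05). Day 3 replicates 3 and 4 were the highest, and the day 7 arrays lay near the floor, so that the difference is a lower bound. The tight junction protein claudin 5 (Cldn5) fell by 1.95 (adjusted p = 7.16e-06), von Willebrand factor followed by von Willebrand factor (Vwf, −1.84), the VEGF receptor Kdr (−1.80), Esam (−1.71) and the angiopoietin receptor Tek (−1.63). Of 10 pericyte and smooth muscle genes 7 fell (median −0.81): Tagln (−2.20), the smooth muscle actin Acta2 (−1.66) and desmin (Des), which skeletal muscle also expresses (−2.16, adjusted p = 0.0489), were among them. Without day 3 replicates 1 and 3 the value of Des was −0.05 (adjusted p = 0.948). Without day 3 replicate 3 alone, or without day 7 replicate 1 or 2, the pericyte list counted 4, and without day 3 replicates 3 and 4 the endothelial list counted 6.

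Few myelin genes were called. Of 16 tested, 2 rose, the connexin Gjc3 (1.09) and Cnp (0.46, adjusted p = 1.88e-05), and none fell (median 0.14). That is 2 of 16, against 18.3% of all genes called higher. Without day 3 replicate 5 the count was 4. Of 11 oligodendrocyte precursor genes Tnr and Lhfpl3 (0.73) rose and Olig1 fell by 0.24 (adjusted p = 0.0412), the last call being lost without any 1 of 7 of the 9 arrays. The share of precursor genes higher, 18.2%, was near the 18.3% of all genes. Gpr17, a receptor of committed precursors, did not pass (0.51, adjusted p = 0.636). Of 8 Schwann cell genes 0 were called by limma's adjusted p and 0 had an unadjusted p under 0.05.

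Many neuronal genes were called higher, but the calls rested on day 3 replicates 3 and 4. Of 18 genes for glutamate, GABA and glycine transmission 14 rose and none fell, with a median of 0.67 and a range of 0.44 to 1.04, and of 23 pan-neuronal and vesicle genes 10 rose and none fell (median 0.40). Only 2 of the 18 and 4 of the 23 had all day 7 arrays above day 3. Grin2b, an NMDA receptor subunit, read 7.04, 6.86, 4.60, 5.53 and 7.02 at day 3 and 7.19, 7.16, 7.31 and 7.12 at day 7, a difference of 0.99 (adjusted p = 0.0185). Replicates 3 and 4 of day 3 were low, and the other 3 lay at or just under the day 7 level. Syt1, the calcium sensor of synaptic vesicles, showed the same order, with 9.27, 9.52, 7.55, 7.95 and 9.34 at day 3 and 9.66, 9.91, 9.87 and 9.73 at day 7 (1.07, adjusted p = 0.00765). Without those 2 arrays the values were 0.22 (adjusted p = 0.485) and 0.41 (adjusted p = 0.255).

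The transmission list mean was 9.52, 9.67, 8.14, 8.54 and 9.65 at day 3 and 9.74, 9.83, 9.83 and 9.79 at day 7. Without day 3 replicate 3 alone, or without replicate 4 alone, 0 of the 18 transmission genes passed limma's adjusted threshold, and 3 of the 23 pan-neuronal genes passed as higher. At an unadjusted p under 0.05 the transmission count was 9 without replicate 3 and 13 without replicate 4. Leaving out both arrays gave 0 and 0 by the adjusted p (medians 0.18 and 0.05), and 0 and 2 by the unadjusted p. Without any 1 of the day 7 arrays 5 to 7 of the 18 and 4 to 8 of the 23 were called, and without day 3 replicate 2 or 5 the pan-neuronal count was 16. The glycine receptor subunits Glra2 and Glra3 (each 1.04), the GABA receptor subunit Gabra3 (0.88) and the GABA-synthesising enzyme Gad1 (0.72, adjusted p = 0.0212) were each called with all arrays and not without day 3 replicate 3 or without replicate 4. Of 4 motor neuron genes Chodl (1.18, adjusted p = 0.00578) and Ache (1.01) rose, and neither was called without day 3 replicates 3 and 4. Hox genes of the caudal cord, which mark the level along the body axis, showed the same arrays standing apart: the list mean was 7.88, 7.95, 6.70, 7.06 and 7.91 at day 3 and 7.97 to 8.15 at day 7. Of 11 tested, 4 rose, among them Hoxb9 (0.88, adjusted p = 0.0484) and Hoxa7 (0.66, adjusted p = 0.00799), and without day 3 replicate 3 or replicate 4 the count was 1. Hoxd10 read 6.56, 5.56, 2.58, 2.17 and 6.86 at day 3 and 6.62, 7.18, 7.48 and 6.39 at day 7 and did not pass (2.17, adjusted p = 0.104). Replicates 3 and 4 lay near the floor for it while the other day 3 arrays overlapped day 7 or lay just below it.

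**Figure D4:**
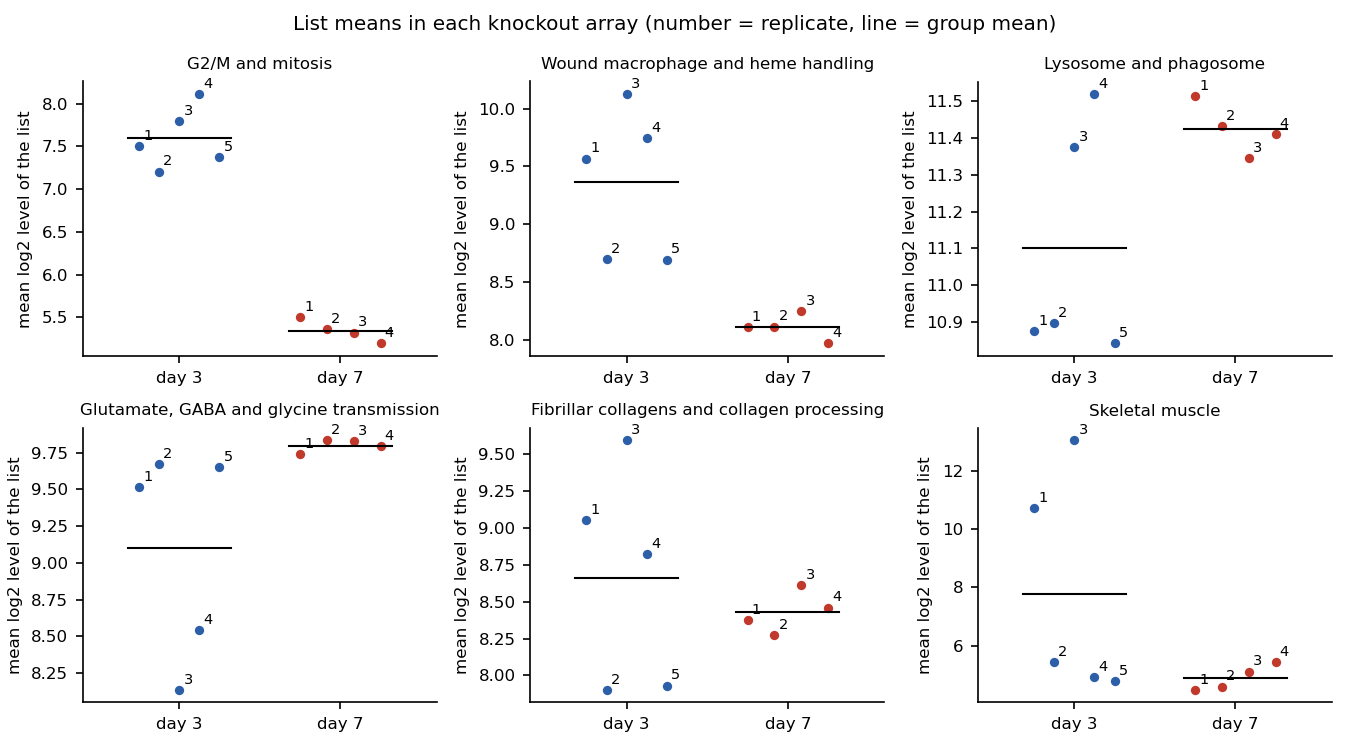
Mean log2 level of 6 gene lists in each knockout array, with the replicate number beside each point and lines at the group means. The G2/M means of the 2 days are far apart, whereas replicates 3 and 4 of day 3 lie low for transmission and high for lysosome, and replicates 1 and 3 lie high for skeletal muscle.

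Among the 9 knockout arrays compared, skeletal muscle RNA stood out in 2 of the day 3 arrays. Other groups held it as well. The mean of 15 muscle genes was 7.53 to 10.36 in the knockout sham arrays, 6.47 to 8.84 in WT day 3 and 4.46 to 9.51 in WT day 7. In the knockout arrays compared it was 10.73, 5.43, 13.05, 4.91 and 4.78 at day 3 and 4.47, 4.58, 5.10 and 5.43 at day 7. Replicates 1 and 3 stood above the rest, and the other 3 lay in or close to the day 7 range. Tnnt3, a troponin of fast muscle, read 10.88, 3.78, 13.33, 3.72 and 3.62 and then 3.04, 2.96, 3.24 and 3.61 and did not pass (−3.85, adjusted p = 0.0796). Of the 15 genes only Myh4 was called. The count was 7, 5 and 7 when day 3 replicate 2, 4 or 5 was left out. The median of −3.08 became −0.17 without replicates 1 and 3. Their part in the other results was not tested beyond the counts without them: 8.93% of all genes higher and 11.3% lower, the G2/M list with 33 of 33 lower, the wound macrophage list with 8 lower and 1 higher and the interferon list with 7 higher. Of 2 erythroid genes tested 0 were called by limma's adjusted p, and 0 had an unadjusted p under 0.05.

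Injury programmes of neurons and the early transcription factors were mixed to lower. Of 17 regeneration-associated genes 5 rose, led by the neuropeptides Npy and Nts (each 0.88), and 4 fell, led by the small heat shock protein Hspb1 (−1.32). Without day 3 replicates 3 and 4 these counts were 3 and 2. Of 14 immediate early genes 7 fell and 1 rose (median −0.51), with Ier3 at −1.21, Fosl2 at −0.99 and Fos at −0.85, and the count of lower genes was 4 without day 3 replicate 3 or replicate 4. Of 6 tested cilia genes of the ependyma 2 rose, and the count was 1 without day 3 replicate 1, 3 or 4 or day 7 replicate 2 or 3.

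Housekeeping functions changed by small amounts, mostly downward. Of 30 proteasome and unfolded protein response genes 19 fell and 1 rose (median −0.28), 2 of the 19 by 1.5-fold, led by the chaperone Hspa1b (−1.29, adjusted p = 0.0174), the disulfide isomerase Pdia6 (−0.72) and the proteasome subunit Psmb2 (−0.47). Of 17 cytosolic ribosomal protein genes 9 fell and none rose (median −0.17), with Rpl14 at −0.58, Rps6 at −0.50, Rps2 at −0.46 and Rplp0 at −0.44. These lists counted 8 and 4 lower without day 3 replicates 3 and 4. Of 18 glycolysis and hypoxia genes 6 fell and 1 rose, with lactate dehydrogenase (Ldha) at −0.94 (adjusted p = 2.79e-05) and the glucose transporter Slc2a1 at −0.45. Ndrg1 rose by 0.50, a call lost without day 7 replicate 3. Oxidative phosphorylation was flat, with 1 higher and 1 lower of 26 and a median of 0.00. The call of the lower gene, Sdhd, was lost without day 3 replicate 3, and that of the higher one, Ndufa1, without any 1 of 7 of the 9 arrays.

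Of 8 tested genes of BDNF and TrkB signalling, 3 rose: Ntrk2 itself, Ntrk3, the receptor of neurotrophin 3, by 0.46 (adjusted p = 0.0175), and the adaptor Gab1 by 0.40 (adjusted p = 0.00115). Bdnf, the ligand, did not pass (0.46, adjusted p = 0.202). The count was 1 without day 3 replicate 3.

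The same comparison in WT cord ran mostly in the same direction, and the difference between the genotypes was called for 2 of 24573 probe sets (0.00814%) and, with 1 probe set per gene, for 1 of 11998 genes (0.00833%). In WT 2593 of 11998 genes were called (21.6%), 1228 higher (10.2%) and 1365 lower (11.4%). Genes higher in both genotypes numbered 747, which is 34.1% of those higher in the knockout and 60.8% of those higher in WT. Genes lower in both numbered 1042, which is 55.5% of the knockout and 76.3% of the WT genes, and 2 were called in opposite directions. Of the genes called in the knockout 95.6% had the same sign in WT. Across genes, which are not independent replicates, the 2 differences correlated with an r of 0.751.

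**Figure D5:**
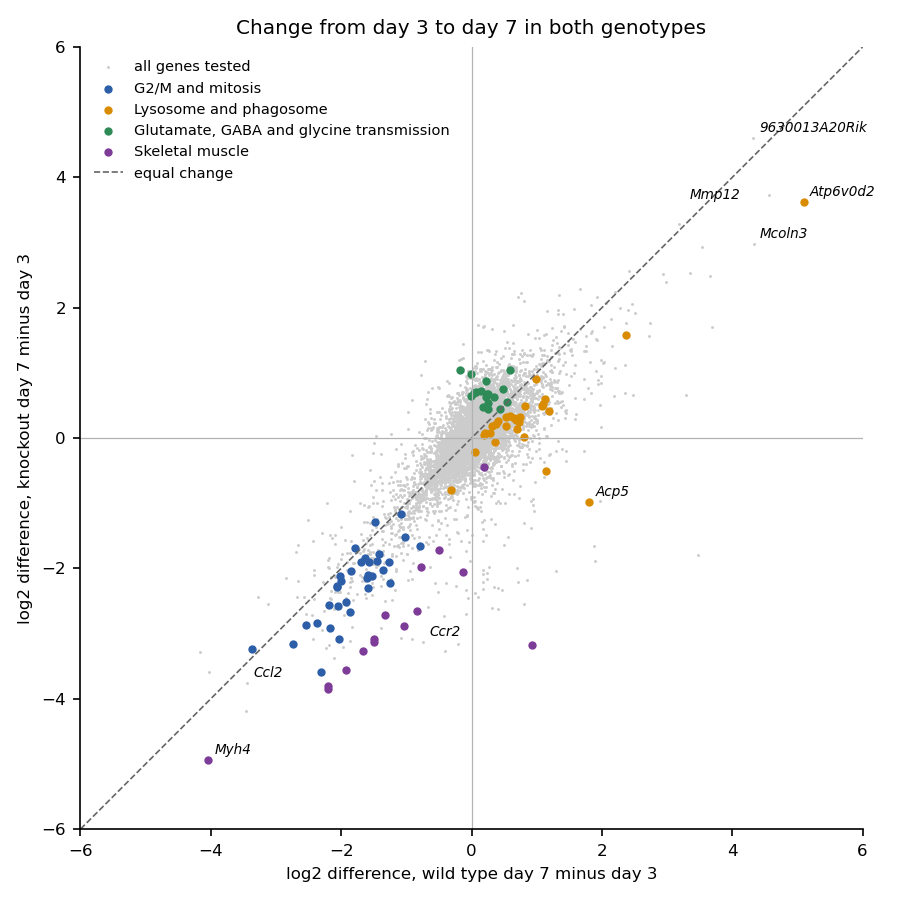
Each point is a gene, placed at its log2 difference, day 7 minus day 3, in wild type (x axis) and in trkB.T1 knockout cord (y axis), with 4 gene lists in colour. Most points follow the dashed line of equal change, the G2/M genes lie low in both genotypes, and the muscle genes lie below the line.

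List by list, WT showed 33 of 33 G2/M genes lower (median −1.78), 23 of 24 replication genes lower (−0.92) and 9 of 18 G1/S genes lower (−0.43). Wound macrophage genes counted 9 lower and 1 higher there, cytokines 5 lower and 2 higher, reactive astrocyte genes 14 lower, homeostatic astrocyte genes 9 higher and 1 lower, and endothelial genes 13 lower and 1 higher. Lysosome genes counted 21 higher and none lower in WT (median 0.69, against 0.25 in the knockout), and microglial genes 7 higher (0.73). Transmission and pan-neuronal genes counted 0 higher and 0 lower in WT by limma's adjusted p (0.23 and 0.17), with 3 of 18 and 1 of 23 at an unadjusted p under 0.05, against 35% of all genes. None of these list differences between genotypes was carried by a called gene: the number of members with a called difference was 0 in each of the 45 lists, while 947 of all genes (7.89%) had an unadjusted p under 0.05. By that unadjusted p the lists with 3 or more members were dendritic cells and MHC class II (6 of 8), Fc receptors and ITAM signalling (6 of 13), lysosome (10 of 28), MHC class I (3 of 10), homeostatic microglia (3 of 12), wound macrophage (4 of 18), G2/M (6 of 33), matrix proteases (3 of 22) and DNA replication (3 of 24).

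The 2 called probe sets were of Mcoln3 and Myo1f. For Myo1f this was a dim probe set, with group means from 2.17 to 4.26. The brighter probe set that stands for Myo1f in the gene counts was not called. Mcoln3 rose in both genotypes, from a mean of 2.43 to 6.75 in WT and from 2.87 to 5.84 in the knockout, a difference between the changes of −1.36 (adjusted p = 0.0428). Myo1f, a myosin of immune cells, on 1421618_at read 4.39, 3.55, 3.88, 4.51 and 3.51 in the knockout at day 3 and 3.17, 3.82, 3.91 and 3.36 at day 7. The days overlapped, and the difference of −0.41 did not pass (adjusted p = 0.116), whereas WT rose by 1.27 (adjusted p = 6.83e-05), a difference between genotypes of −1.67 (adjusted p = 0.0428). Both calls were lost in most of the other settings and without several single arrays, such as day 3 replicate 3 of the knockout, where 0 probe sets were called, though 1823 of 24573 (7.42%) had an unadjusted p under 0.05 in the fit of all arrays. Next in order of p came Itga4 (−1.35), Cdk2 (−0.85), Slc25a45 (−0.98) and Cd37 (−1.96), each with an adjusted p of 0.295. Ccr2 and Clec4n fell in the knockout and did not pass in WT (−0.74, adjusted p = 0.373, and −1.08, adjusted p = 0.14), but their differences between genotypes did not pass either (both adjusted p = 0.642).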

How the data were processed

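Total RNA of thoracic spinal cord was hybridised to 34 one-colour arrays, in 8 groups by title. The authors deposited log2 values of 45101 probe sets, computed with GCRMA per the submitters' processing notes; the version is not given, and the log2 scale was read from the values (2.17 to 15.904, with 33.7% within 0.1 of the lowest). GCRMA shrinks dim probe sets to a floor, which understates differences of weak genes. The arrays carry no read depth, and their number limits the precision.

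Values were used as deposited. A probe set was tested when 4 or more arrays read 4 or higher on the log2 scale; 64 array controls were left out. The means of the 8 groups were modelled over all 34 arrays in R 4.3.3 with limma 3.58.1 (lmFit, then eBayes, 26 residual and 2.62 prior degrees of freedom), with Benjamini-Hochberg adjustment over 24573 probe sets and a threshold of 0.05. The difference between genotypes was a contrast of the 2 changes. The fit was tested on simulated data. Of all probe sets, 34958 named 1 gene, 932 several and 9211 none. Each gene was represented by its brightest probe set on average, and 137 genes had probe sets called in both directions. Symbols of 34754 probe sets were matched by Entrez identifier to RefSeq, whose GRCm38.p6 promoters were used.

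The comparison, its members and the 45 gene lists (836 genes) were chosen with earlier results of these data known. Named were the 15 largest called changes in each direction, the 5 genes with the smallest p between genotypes, up to 6 members per list with the largest differences, and all Ntrk2 probe sets; Gfap, Vim, Mki67, Cd68, Ctsd, Npc2, Abca1, Col1a1, Cxcl10 and Plau were named after their values were seen. Replicate numbers recur across groups, but arrays of the same number did not deviate together (correlations −0.095, 0.077, 0.032 and −0.027), so no pairing was used. No 2 arrays were identical, and the lowest correlation among the 9 compared was 0.928. Alternatives changed the filter, the scaling, the arrays fitted, the prior, the weights, the grouping of 2 day 1 WT arrays whose labels disagree, the probe set rule and single arrays. Leaving out day 3 replicates 1 and 3, 3 and 4, or 1, 3 and 4, and 1 weight per group, were chosen after seeing the data.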

Additional observations from a re-analysis of the deposited data

Results flagged for a closer look

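In each knockout group the array farthest from the rest was compared with the spread of the others for 150 sets of values, and 9 stood out; chance flags about 1 in 20 groups. At day 3 it was replicate 3 both times: its mean of the homeostatic microglia list was 9.03 (others 9.40 to 9.54), and its mean of the glycolysis and hypoxia list was 10.5 (others 10.1 to 10.2). At day 7 replicate 3 read 8.62 for Hmox1 (others 7.73 to 7.88), 8.87 for the mean of the matricellular list (others 8.80) and 8.13 for that of the Schwann cell list (others 7.42 to 7.50). Replicate 2 read 2.63 for Hspb7 (others 2.20 to 2.25) and 8.61 for the mean of the MHC class I list (others 8.82 to 8.85). Replicate 1 read 8.68 for the mean of the complement list (others 8.59 to 8.60) and 9.997 for that of the glycolysis list, 0.005 below the nearest other. At day 7 these gaps are small because the arrays lie close together.

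By limma's test of the difference itself, the change from day 3 to day 7 differed between knockout and WT on 2 probe sets. These were 1421618_at of Myo1f (−1.67, adjusted p = 0.0428) and 1437540_at of Mcoln3 (−1.36, adjusted p = 0.0428). The minus sign refers to the change: both knockout means lay above WT at day 3 and below WT at day 7. Both calls were lost in most other settings, and the brighter probe set of Myo1f was not called.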

How the results depend on the processing

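Among genes under the rule for named genes, none with a called difference changed sign under any setting run. Of all 4070 called genes, 92 changed sign when each gene was read as the average over its probe sets. Leaving out day 3 replicates 1, 3 and 4 reversed 63, and fitting only the arrays compared reversed 8. Every other setting reversed 3 or fewer. With all arrays 7463 probe sets were called in the knockout (3969 higher, 3494 lower, 2863 at least 1.5-fold), 4712 in WT and 2 for the difference between genotypes. Fitting only the arrays compared gave 3453 (1520, 1933 and 1680), 1488 in WT and 0. Grouping 2 day 1 WT arrays by their source and time fields gave 4572 (2468 and 2104), 979 in WT and 0. Averaging the day 7 knockout arrays to 1 sample gave 556 (172, 384 and 485) and 0. Array weights gave 1875 at least 1.5-fold and 0 between genotypes, and 1 weight per group gave 2815 in WT and 0. Without day 3 replicates 1 and 3 there were 4328 (1945 higher, 1850 at least 1.5-fold), without 3 and 4 there were 2626 (1225, 1401 and 1163), without 1, 3 and 4 there were 1566 (650, 916 and 855), and 0 between genotypes in each. The count between genotypes was 1 after quantile normalization and 0 with the stricter filter, with an intensity trend and robust prior, and without the library labelled sham KO replicate 2. Leaving out 1 array gave 4888 to 9040 called (2349 to 4881 higher, 2539 to 4159 lower, 1875 to 3870 at least 1.5-fold), 3174 to 5502 in WT and 0 to 3 between genotypes. With the replicate block 8498 were called (4663 higher, 3835 lower), 4710 in WT and 0 between genotypes; the numbers do not pair the arrays. Of the 30 genes with the largest changes, 26 kept their call without the filter, 28 with only the arrays compared and 20 with day 7 averaged; those lost were most often Myh4, Hspb7, Rbp4 and Slc26a7. Why the counts moved was not tested, beyond the fewer arrays of such fits. Signals near the floor limit the weakest genes.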

Other observations

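These genes were chosen after their values were seen. Several genes of oligodendrocytes that are just forming were higher at day 7 than at day 3 in the knockout. Bmp4, a growth factor that these cells express, read 3.72, 4.68, 4.84, 4.75 and 4.85 at day 3 and 6.27, 6.67, 6.63 and 6.91 at day 7, a difference of 2.05 (adjusted p = 2.43e-05; WT 1.83). Enpp6, a choline phosphodiesterase of newly formed oligodendrocytes, read 8.06, 8.25, 8.32, 8.38 and 8.43 and then 9.57, 9.64, 9.58 and 9.55, a difference of 1.29 (adjusted p = 3.15e-07; WT 1.34). The arrays of the 2 days did not overlap in either gene. The Wnt effector Tcf7l2 rose by 1.21 (adjusted p = 6.41e-08), the kinase Fyn by 0.99 (adjusted p = 5.74e-10) and the calcium channel Itpr2 by 0.47 (adjusted p = 0.00972), while Bcas1 (−0.10, adjusted p = 0.312), Nkx2-2 (−0.17, adjusted p = 0.372) and Myrf (0.19, adjusted p = 0.134) did not pass.

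Some genes known from the leptomeninges, the inner covering of the cord, were also higher. Slc6a13, a GABA and taurine transporter, read 4.45, 4.03, 4.73, 4.55 and 4.57 at day 3 and 5.59, 6.51, 6.13 and 6.30 at day 7, a difference of 1.67 (adjusted p = 0.0203; WT 0.31). The sulfate transporter Slc13a4 rose by 1.33 (adjusted p = 0.0184) and claudin 1 (Cldn1) by 1.07 (adjusted p = 0.00723), as did Igf2 and Rbp4 above. Ogn (0.63, adjusted p = 0.632) and Aldh1a2 (0.14, adjusted p = 0.89), of the same cells, did not pass. Of macrophage and B cell genes, Cd5l rose by 1.57 (adjusted p = 0.00189) and Cd22 by 1.70 (adjusted p = 5.05e-05).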
